A study of Mus musculus with 6 samples.

Results

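The genes described here are those of DNA repair and translesion synthesis in the pituitary gland of male mice. They were taken by symbol from the deposited count table, as every RAD, XRCC, FANC, ERCC, BRCA, MSH, MLH, POL, REV, PARP and ligase symbol of a fixed pattern plus the damage kinases ATM, ATR, CHEK1 and CHEK2, PCNA and the glycosylases OGG1 and MUTYH. The pattern matched 70 of 16736 rows, and TP53BP1, which it also names, was not analysed here. The pattern is broad, so it also takes RAD21, a subunit of cohesin, RAD21L1, RAD54L2, a relative of RAD54 known as a chromatin remodeller, and FANCD2OS, a gene antisense to FANCD2. Of the 70 genes, 66 passed the filter on low counts and were tested. RAD51AP1, RAD51AP2, RAD21L1 and FANCD2OS did not pass and had at most 17 counts in any library.

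The series holds 3 libraries labelled HFD and 3 labelled RD (the labels do not spell out either diet name). The glands were collected 4 h into feeding after a fast of 16 h, which all 6 libraries share. The libraries were made from polyadenylated RNA of the whole gland. Neither strain nor age was given in the sources used here. Nothing in the labels ties each library to an animal of its own. All p-values therefore refer to variation among libraries, part of which may be technical. In RNA of a whole gland, fewer cells of a type and less RNA per cell cannot be told apart.

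Cells repair DNA through several partly separate routes. Base excision repair replaces single damaged bases, and single-strand break repair closes breaks in a single strand. Nucleotide excision repair removes bulky lesions, and mismatch repair corrects replication errors. Double-strand breaks are joined either end to end or by copying a sister chromatid in homologous recombination. The Fanconi anaemia proteins unlink crosslinked strands. Where a replication fork stalls at a lesion, the ubiquitin ligase RAD18 marks the sliding clamp PCNA with ubiquitin, and specialised polymerases then copy past the damage, which is called translesion synthesis. Most endocrine cells of the adult pituitary divide rarely, so the replication-linked genes of these routes are usually at low levels there.

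Totals of the listed rows ranged from 14185372 to 14384933 counts in the HFD libraries and from 15702214 to 18111345 counts in the RD libraries. Levels are given as CPM, read counts scaled to a common library total with trimmed-mean (TMM) factors. A gene with 3 counts stands at 0.173 to 0.208 CPM, depending on the library. The label of the tissue was borne out by GH1, the growth hormone gene, at 36570 to 39508 CPM in HFD glands and 58901 to 71566 CPM in RD glands. Changes are log2(HFD/RD) ± SE from edgeR's quasi-likelihood test, and a gene is referred to as called where its Benjamini-Hochberg adjusted p over all 13873 tested genes was under 0.05.

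RAD18 was the repair gene that differed most between the diets, at 2.69-fold lower in HFD than in RD glands. Apart from it, 5 repair genes were called, all higher in HFD, namely RAD54B, FANCD2, MSH5, RAD9B and FANCM. The remaining 60 were not called, with log2 changes between -0.76 and 1.13. Among all tested genes 10.5% were called, 5.87% higher and 4.61% lower, against 9.09% of the tested repair genes. The share of called repair genes was thus near that of the transcriptome. A single route held 0 to 2 called genes, so each share by route rests on few genes. The median log2 change was -0.015 over the 66 repair genes and -0.0023 over all tested genes. Scaling by library size alone made 72.5% of all called genes higher in HFD, where TMM gave 56.0%, and the 6 repair genes were called in the same directions under either scaling.

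**Figure D1:**
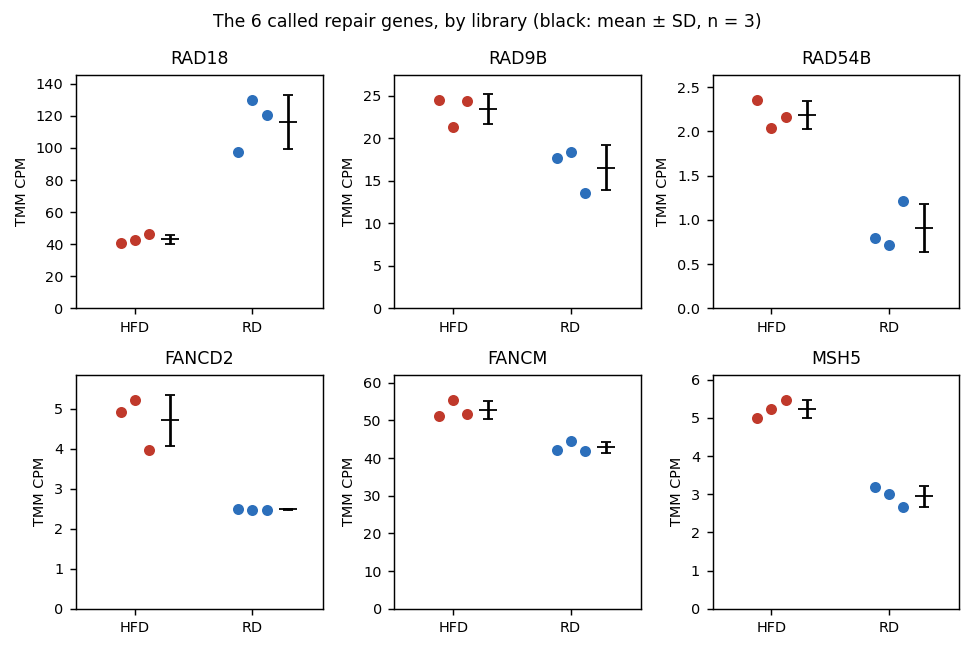
TMM CPM (y axis, from 0) of the 6 called repair genes in each of the 3 HFD and 3 RD libraries (points), with the mean ± SD of each group in black. RAD18 lies between 40.6 and 46.3 CPM in HFD libraries and between 97.4 and 130 CPM in RD libraries, and the groups do not overlap for any of the 6 genes.

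RAD18 (mouse gene Rad18, ENSMUSG00000030254.16, minus strand of chromosome 6 of mm10, 112619850 to 112696686) had 40.6, 42.5 and 46.3 CPM in HFD replicates 1, 2 and 3, against 97.4, 130 and 121 CPM in RD replicates 1, 2 and 3. All HFD libraries lay close together and below the lowest RD library, which was 2.10 times the highest HFD library. The means were 43.1 ± 2.94 CPM in HFD and 116 ± 16.8 CPM in RD (SD, n = 3 each), over 1897 and 5681 counts in all. The log2 change was -1.43 ± 0.11 with a 95% interval of -1.68 to -1.18 (edgeR adjusted p = 0.00062). By p it stood at rank 4 of the 13873 tested genes. By size it stood at rank 35 of the 639 genes called lower, and at rank 6 of the 423 of these with a mean of 50 CPM and over.

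The fall of RAD18 was called whichever of the 6 libraries was left out (log2 change -1.55 to -1.34, edgeR adjusted p up to 0.0079) and under 9 other settings (-1.44 to -1.36). In GENCODE M21 no exon of another gene overlaps those of RAD18. The 3 tested genes on each side of it on chromosome 6 were not called. Of these, SRGAP3, the nearest on the far side of its start, was at 323 ± 13.4 CPM in HFD and 330 ± 73.5 CPM in RD, and OXTR, the oxytocin receptor gene beyond its end, at 1.61 ± 0.65 CPM in HFD and 1.42 ± 0.37 CPM in RD.

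Per kilobase of annotated exon, which allows levels of different genes to be set side by side, RAD18 stood at 7.44 ± 0.51 CPM per kb in HFD glands and 20.02 ± 2.90 CPM per kb in RD glands. That was rank 19 of the 69 repair genes with a length in HFD and rank 3 in RD. Exon lengths are unions over all annotated transcripts, so genes with long rare isoforms are understated. RAD21 was the highest in either group, at 33.9 CPM per kb in HFD and 37.3 CPM per kb in RD, followed by REV3L at 25.2 CPM per kb in HFD and 25.0 CPM per kb in RD.

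The genes that act with RAD18 differed less. The genes set beside it were its ubiquitin-conjugating enzymes UBE2A and UBE2B, its interactors SLF1 and SLF2, the ligases SHPRH and HLTF that extend the ubiquitin chain on PCNA, the deubiquitinase USP1 with its cofactor WDR48, MAD2L2 of polymerase zeta, and PCNA itself. SLF1 and SLF2 were added after their values were seen. Of these 10 genes 0 were called by edgeR and 0 by limma-voom, and DESeq2 called 1, HLTF. By edgeR 2 were at an unadjusted p under 0.05, against 26.5% of all tested genes, of which 10.5% were called. All log2 changes but that of UBE2A were below 0. SLF1, SLF2, UBE2B and WDR48 were lower in every HFD library than in any RD library, and the other partners overlapped. Among all tested genes 15.6% were separated in this direction. HLTF had a log2 change of -0.31 ± 0.10 by edgeR (adjusted p = 0.084; 0.046 by DESeq2), and USP1 followed with -0.23 ± 0.10 (0.19). UBE2B had a log2 change of -0.16 ± 0.07 (0.17) and UBE2A of 0.22 ± 0.20 (0.53). PCNA was at 23.1 ± 1.46 CPM in HFD and 26.7 ± 4.37 CPM in RD, with RD replicate 3 highest at 31.7 CPM and the groups overlapping.

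The translesion polymerases themselves did not pass the test. REV3L, the catalytic subunit of polymerase zeta, had 336, 352 and 318 CPM in HFD and 338, 344 and 315 CPM in RD, a log2 change of 0.01 ± 0.06. Its groups overlapped almost completely. The log2 changes of REV1, the scaffold of the translesion complex, and of the inserter polymerase genes POLH, POLI and POLK lay between -0.02 and 0.20, and the 95% intervals of these 5 polymerase genes spanned -0.28 to 0.56 in all. A 1.5-fold change in either direction lies outside these intervals. POLQ, the polymerase of microhomology-mediated end joining, was at 10.7, 11.5 and 7.84 CPM in HFD and 6.91, 7.81 and 6.76 CPM in RD. The groups did not overlap, but only by the gap between 7.84 and 7.81 CPM, and POLQ was not called (log2 change 0.49 ± 0.18, edgeR adjusted p = 0.12). LIG1, the replicative DNA ligase, had a log2 change of 0.09 ± 0.14.

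The promoter windows of the called genes are shown because the only fall and the rises can then be compared by sequence. Each runs from 250 bases before to 50 bases after a RefSeq start on GRCm38.p6, the nearest to the gene's annotated start, on the gene's own strand, and is printed for the 4 called genes that have an entry. Capitals mark matches, on either strand, to an E2F site (TTTCCCGC, TTTGGCGC, TTTCGCGC or TTTGCCGC), to the half-site of the cyclic AMP response element (TGACGT) and to the CCAAT box (CCAAT). No match overlaps a match of another motif. The windows are chr6:112696621-112696920 (minus strand) for RAD18, chr17:35046573-35046872 (minus) for MSH5, chr12:65075353-65075652 (plus) for FANCM and chr5:122354156-122354455 (minus) for RAD9B.
RAD18: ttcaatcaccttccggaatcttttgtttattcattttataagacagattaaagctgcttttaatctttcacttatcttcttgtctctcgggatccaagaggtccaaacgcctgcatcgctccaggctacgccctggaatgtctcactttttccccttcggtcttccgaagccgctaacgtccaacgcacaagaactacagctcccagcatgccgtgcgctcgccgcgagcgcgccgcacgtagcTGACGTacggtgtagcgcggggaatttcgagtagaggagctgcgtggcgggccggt
MSH5: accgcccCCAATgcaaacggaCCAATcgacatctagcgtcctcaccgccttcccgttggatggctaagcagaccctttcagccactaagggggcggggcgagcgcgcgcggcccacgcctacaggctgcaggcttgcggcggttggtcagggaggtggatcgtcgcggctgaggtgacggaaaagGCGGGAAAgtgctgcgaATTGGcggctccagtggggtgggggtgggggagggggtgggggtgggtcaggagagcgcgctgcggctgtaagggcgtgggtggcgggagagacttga
FANCM: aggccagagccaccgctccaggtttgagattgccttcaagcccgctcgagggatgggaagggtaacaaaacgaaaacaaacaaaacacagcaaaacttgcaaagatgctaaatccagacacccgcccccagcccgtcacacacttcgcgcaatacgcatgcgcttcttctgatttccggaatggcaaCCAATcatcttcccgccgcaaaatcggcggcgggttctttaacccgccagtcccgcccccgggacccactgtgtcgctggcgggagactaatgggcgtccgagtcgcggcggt
RAD9B: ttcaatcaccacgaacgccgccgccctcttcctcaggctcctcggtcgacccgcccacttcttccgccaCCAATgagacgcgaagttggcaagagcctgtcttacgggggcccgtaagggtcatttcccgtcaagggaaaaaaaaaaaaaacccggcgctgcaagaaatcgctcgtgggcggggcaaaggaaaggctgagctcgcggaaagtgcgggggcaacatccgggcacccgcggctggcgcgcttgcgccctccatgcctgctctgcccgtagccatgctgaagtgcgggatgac

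The RAD18 window held 1 cyclic AMP half-site, just before the start, with no E2F site and no CCAAT box, and its GC content was 53.3%. The windows of the genes that rose held CCAAT boxes, 3 in MSH5 and 1 each in FANCM and RAD9B, with GC contents of 67.3%, 58.0% and 62.3%, and MSH5 alone of the 4 held an E2F site. The half-site was present in 7.64% of 27025 RefSeq promoter windows (11.3% of those of 10631 tested genes), the CCAAT box in 37.9% (37.4%) and the E2F site in 2.32% (3.96%). Of the 55 repair genes with an entry, 4 held the half-site, 28 the CCAAT box and 8 the E2F site (14.5%). The 55 include FANCD2OS, RAD51AP1 and RAD51AP2, which were not tested. For a repair gene with several windows the one nearest its annotated start was used. The shares over all promoters and over tested genes used the first one listed, so the choice of window differed. The 8 were FANCG, CHEK2, BRCA2, RAD51C, MSH5, MSH3, MSH6 and XRCC6. A match is a run of letters and says nothing of binding.

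Among the 8 genes of damage signalling, 1 was called (12.5%, against 10.5% of all tested genes) and 7 were not. RAD9B, a paralogue of the RAD9 subunit of the checkpoint clamp that is best known from testis, had 24.5, 21.4 and 24.4 CPM in HFD and 17.7, 18.4 and 13.6 CPM in RD. Its HFD libraries were all above its RD libraries, of which replicate 3 was lowest, and it was 1.42-fold higher in HFD (log2 change 0.50 ± 0.14, edgeR adjusted p = 0.046). The exons of RAD9B share 1002 bases with PPTC7 on the opposite strand, which was the more abundant at 57.4 ± 5.60 CPM in HFD and 63.9 ± 9.86 CPM in RD and was not called. Such overlaps with exons of another protein-coding gene concern 24 of the 66 tested genes, and whether strand was used in counting is not given in the sources used here. RAD9A, the paralogue used in most tissues, had a log2 change of -0.14 ± 0.15, and RAD1, another subunit of the clamp, was at 15.8 ± 0.65 CPM in HFD and 19.3 ± 1.18 CPM in RD without overlap and without a call (edgeR adjusted p = 0.13).

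The apical kinases ATM and ATR were not called. ATM, which responds to double-strand breaks, had 149, 157 and 150 CPM in HFD and 158, 168 and 125 CPM in RD, so that RD replicate 3 was lowest and the groups overlapped. Its log2 change was 0.01 ± 0.10, with a 95% interval of -0.21 to 0.24. ATR, which responds to single-stranded DNA at stalled forks, was at 59.0 ± 3.40 CPM in HFD and 65.2 ± 2.0 CPM in RD. The groups did not overlap, but the gene was not called (log2 change -0.14 ± 0.08, edgeR adjusted p = 0.28). CHEK2, the effector kinase below ATM, had a log2 change of 0.18 ± 0.14, and that of CHEK1, the effector below ATR, at 3.54 CPM in HFD and 4.55 CPM in RD, was -0.36 ± 0.32.

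In homologous recombination 1 of 12 tested genes was called (8.33%, against 10.5% of all tested genes). RAD54B, a DNA translocase of the recombination machinery, had 2.36, 2.04 and 2.16 CPM in HFD and 0.80, 0.72 and 1.21 CPM in RD. All HFD libraries were above all RD libraries, and the log2 change was 1.25 ± 0.33 (edgeR adjusted p = 0.040). These values rest on 30 to 34 counts in HFD libraries and 11 to 21 in RD libraries. RAD54B also shares 2068 exon bases with FSBP on the same strand, which was at 1.05 ± 0.41 CPM in HFD and 0.60 ± 0.27 CPM in RD and was not called, so how reads were shared out between these genes is uncertain.

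BRCA2, which loads the recombinase onto single-stranded DNA, had 23.3, 25.7 and 22.6 CPM in HFD and 17.98, 20.8 and 12.7 CPM in RD. Its groups did not overlap, RD replicate 3 was lowest, and it was not called (log2 change 0.48 ± 0.17, edgeR adjusted p = 0.10). RAD51C, a recombinase paralogue, had a log2 change of -0.45 ± 0.21 (edgeR adjusted p = 0.20). RAD51D, another paralogue, and RAD50, of the end-resecting MRE11 complex, were the most abundant genes of this route per kilobase, RAD51D at 10.98 CPM per kb in HFD and 10.9 CPM per kb in RD and RAD50 at 7.22 CPM per kb in HFD and 7.86 CPM per kb in RD. RAD52, a mediator of strand annealing, followed at 4.43 CPM per kb in HFD and 4.17 CPM per kb in RD. Their log2 changes lay between -0.12 and 0.09.

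Of 10 tested Fanconi anaemia genes 2 were called (20%, against 10.5% of all tested genes), both higher. FANCD2, which with FANCI is ubiquitinated at crosslinks, had 4.92, 5.23 and 3.99 CPM in HFD, against 2.51, 2.47 and 2.48 CPM in RD. The RD libraries lay below all HFD libraries, and FANCD2 was 1.89-fold higher in HFD (log2 change 0.92 ± 0.22, edgeR adjusted p = 0.030). FANCD2 had only 59 to 77 counts in HFD libraries and 38 to 43 in RD libraries. FANCD2OS, which shares 257 exon bases with it on the opposite strand, had 0 counts in the HFD libraries and at most 2 in an RD library. FANCI itself was at 1.82 ± 0.60 CPM in HFD and 2.26 ± 0.38 CPM in RD and was not called. FANCD2 lies on chromosome 6 of mm10 at 113531682 to 113597017, 835 kb from RAD18, which had the opposite direction.

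FANCM, the translocase that anchors the Fanconi core complex at DNA, had 51.1, 55.5 and 51.8 CPM in HFD, against 42.2, 44.4 and 41.8 CPM in RD. The 1.23-fold difference is the smallest of the 6 calls (log2 change 0.30 ± 0.08, edgeR adjusted p = 0.039), and the groups did not overlap. FANCA, a core complex subunit, had 2.64, 2.24 and 1.82 CPM in HFD and 0.55, 1.11 and 1.39 CPM in RD, with a log2 change of 1.13 ± 0.38 that was not called (edgeR adjusted p = 0.088). The core subunit FANCE and the ubiquitin ligase FANCL had log2 changes of -0.06 ± 0.11 and -0.11 ± 0.12. Over the route as a whole 6 log2 changes were above 0 and 4 below, with a median of 0.15.

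Of the 4 genes of non-homologous end joining 0 were called by edgeR or DESeq2, against 10.5% of all tested genes by edgeR. By edgeR 1 was at an unadjusted p under 0.05, against 26.5% of all tested genes. XRCC4, the partner of the ligase LIG4, had 22.05, 21.05 and 21.01 CPM in HFD and 15.3, 18.2 and 17.3 CPM in RD without overlap. Its log2 change was 0.34 ± 0.11 (edgeR adjusted p = 0.086), and it passed with library size as the only scaling (0.043). XRCC5 and XRCC6, the Ku subunits that bind broken ends, had log2 changes of 0.05 ± 0.09 and 0.09 ± 0.09. LIG4 was at 17.4 ± 0.99 CPM in HFD and 19.8 ± 6.10 CPM in RD, where replicate 3 stood at 26.7 CPM against 17.4 and 15.3 CPM in replicates 1 and 2.

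Of 7 genes of base excision and single-strand break repair 0 were called by edgeR or DESeq2, against 10.5% of all tested genes by edgeR. By edgeR 1 was at an unadjusted p under 0.05, against 26.5% of all tested genes. Of the 7 log2 changes 6 were below 0, as were 6 of 7 in mismatch repair and 6994 of 13873 among all tested genes. These differences in share were not tested. MUTYH, the glycosylase that removes adenine opposite oxidised guanine, had 3.12, 2.92 and 3.24 CPM in HFD, against 4.59, 6.31 and 4.91 CPM in RD. The groups did not overlap, and the log2 change of -0.76 ± 0.22 narrowly missed the threshold (edgeR adjusted p = 0.054). It passed with a stricter filter (0.046) and with halved counts (0.0498). OGG1, the glycosylase of oxidised guanine itself, had a log2 change of 0.23 ± 0.16. PARP1, the main sensor of strand breaks, was at 55.8 ± 3.28 CPM in HFD and 60.6 ± 2.43 CPM in RD (-0.12 ± 0.08). PARP3 (-0.25 ± 0.16), the ligase gene LIG3 (-0.10 ± 0.07) and the scaffold gene XRCC1 (-0.06 ± 0.08) were not called either.

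Of the 7 ERCC genes of nucleotide excision repair 0 were called by edgeR, against 10.5% of all tested genes. At an unadjusted p under 0.05 stood 1 of the 7, against 26.5% of all tested genes. ERCC6, the CSB protein that starts repair at stalled RNA polymerase, had 102, 92.9 and 83.0 CPM in HFD, against 111, 104 and 135 CPM in RD. The lowest RD library was just above the highest HFD library, and the log2 change was -0.33 ± 0.11 (edgeR adjusted p = 0.084; DESeq2 called it, 0.035). The endonuclease gene ERCC5 (-0.16 ± 0.10) and the helicase genes ERCC2 (-0.13 ± 0.09) and ERCC3 (0.04 ± 0.10) of TFIIH overlapped between the diets. All 7 intervals lay within a 1.5-fold change.

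In mismatch repair 1 of 7 genes was called (14.3%, against 10.5% of all tested genes). MSH5, known for its part in meiotic crossing over rather than in mismatch repair, had 4.99, 5.23 and 5.47 CPM in HFD, against 3.18, 2.99 and 2.66 CPM in RD. All HFD libraries were above all RD libraries, and it was 1.78-fold higher in HFD (log2 change 0.83 ± 0.20, edgeR adjusted p = 0.032). MSH5 had only 72 to 81 counts in HFD libraries and 46 to 52 in RD libraries. MSH4, its meiotic partner, was at 1.0 ± 0.17 CPM in HFD and 1.18 ± 0.30 CPM in RD and was not called. The mismatch sensor gene MSH6 had a log2 change of -0.01 ± 0.09. MLH3, a MutL protein that also acts in meiotic crossing over, stood at 55.8, 65.7 and 54.2 CPM in HFD and 73.7, 76.7 and 62.1 CPM in RD, where replicate 3 was lowest and lay within the HFD range. Its log2 change was -0.27 ± 0.11 with all libraries (edgeR adjusted p = 0.14), and without RD replicate 3 it was called lower (-0.37, 0.030).

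RAD21, the cohesin subunit, was at 144 ± 3.35 CPM in HFD and 158 ± 11.8 CPM in RD (log2 change -0.14 ± 0.07), and RAD54L2 was at 86.5 ± 8.75 CPM in HFD and 93.3 ± 13.01 CPM in RD (-0.11 ± 0.11). Neither was called.

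**Figure D2:**
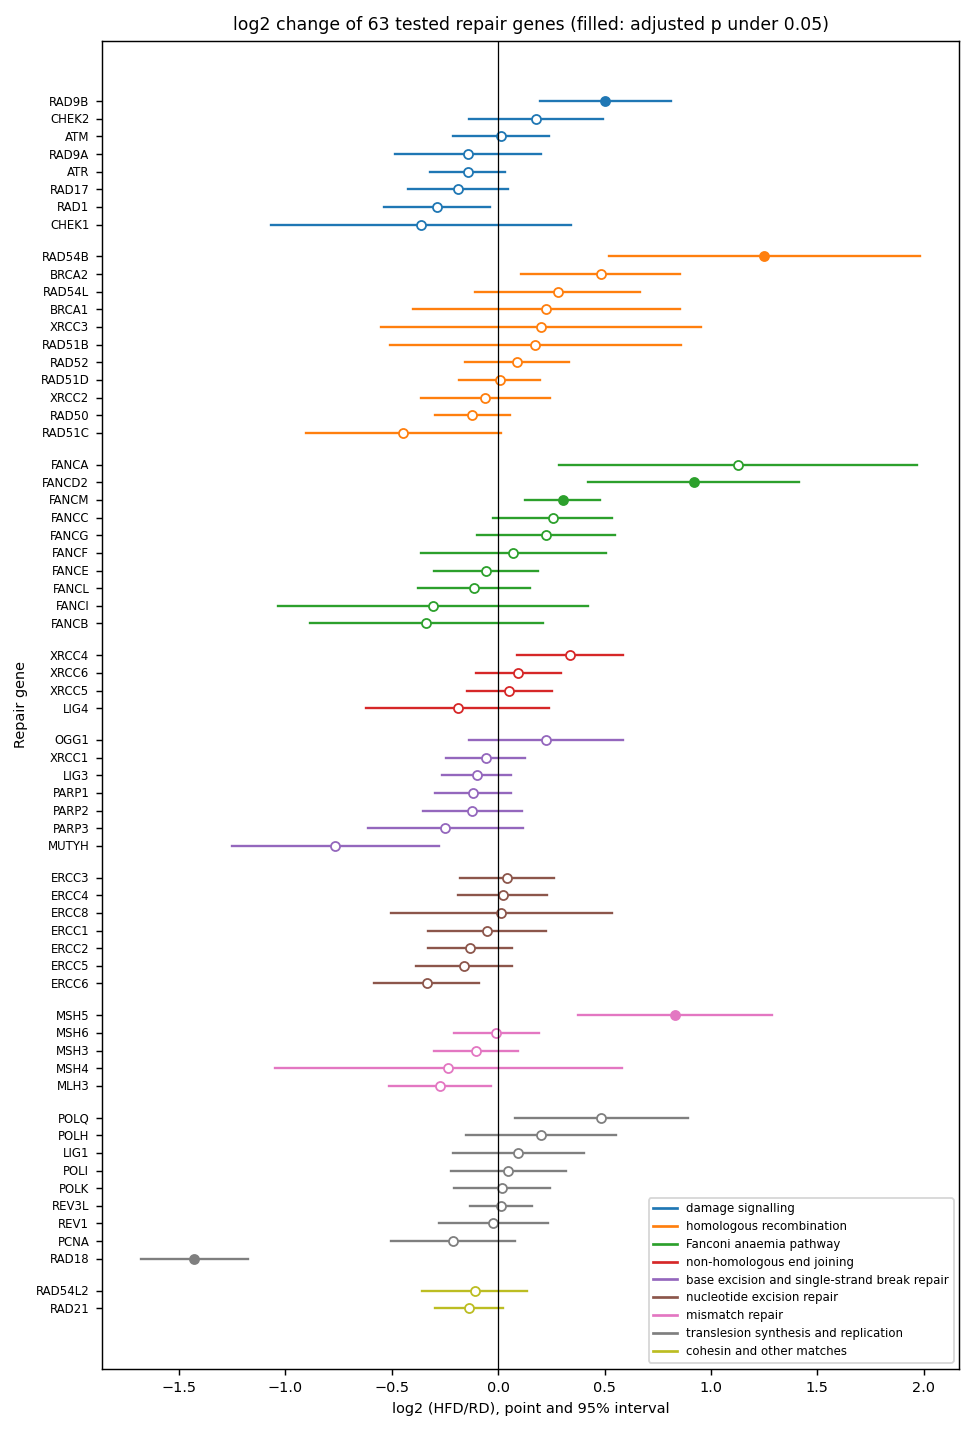
log2(HFD/RD) of 63 of the 66 tested repair genes (x axis, point and unadjusted 95% interval) by route (colour) and sorted within it, with filled points for genes with an adjusted p under 0.05. RAD18, at -1.43, stands alone on the left, and the interval of 41 of the 63 plotted genes lies within a 1.5-fold change of 0.

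The precision of these comparisons differed with level. The unadjusted 95% interval lay within a 1.5-fold change for 43 of the 66 repair genes (8810 of all 13873 tested genes) and within a 2-fold change for 56. Of the 20 repair genes with a mean under 10 CPM, 3 intervals lay within 1.5-fold, against 26 of 31 genes of 10 to 50 CPM and 14 of 15 genes of 50 CPM and over. The median SE was 0.24, 0.11 and 0.10 in these classes. For low genes such as FANCI, XRCC3, RAD51B and BRCA1 the interval reached past a 1.5-fold change in at least 1 direction. Of the 15 most abundant genes, 13 had a log2 change below 0, a larger share than the 2948 of 4882 among all tested genes of that level. Of the 20 least abundant 14 were above 0, against 2216 of 3569 among all tested genes. These differences in share were not tested.

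**Figure D3:**
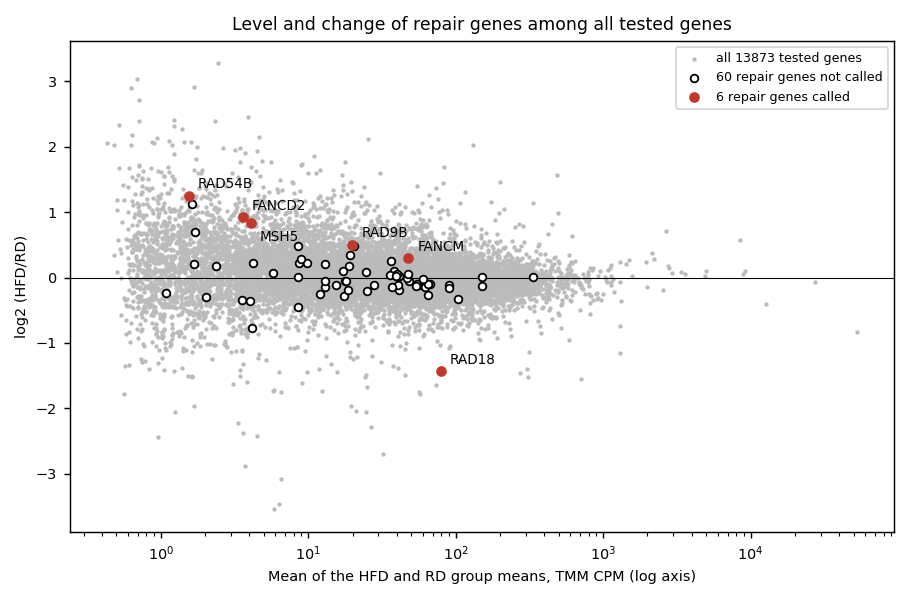
log2(HFD/RD) (y axis) against the mean of the 2 group means in TMM CPM (x axis, log scale) for all 13873 tested genes (grey), the 60 repair genes that were not called (open) and the 6 that were (red). RAD18 lies at -1.43, apart from the other repair genes, and RAD54B, FANCD2 and MSH5 lie among the genes with means under 10 CPM.

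HFD and RD libraries were fully separated for 19 of the 66 repair genes (28.8%), 11 higher and 8 lower in HFD, against 32.5% of all tested genes (16.9% higher, 15.6% lower), so the share was near that of the transcriptome. The 6 called genes were among the 19. Repair genes varied less among the HFD libraries, with a median coefficient of variation of 6.52% in HFD and 11.9% in RD (7.76% and 10.4% over all tested genes). The coefficient was larger in RD for 48 of 66 genes, and at least 20% for 4 genes in HFD and for 12 in RD. RD replicate 3 was the lowest RD library for 27 genes, ATM and BRCA2 among them, and the highest for another 27, including LIG4, ERCC6 and CHEK1. Each is 40.9% of the repair genes, near the 37.9% and 39.0% of all tested genes. RD replicate 1 was the highest for 10 repair genes (15.2%, against 32.0% of all tested genes, a difference that was not tested).

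Repair genes outside the symbol pattern gave few calls. Of 88 tested genes in 5 lists, 2 were called (2.27%, against 10.5% of all tested genes, a difference that was not tested), both higher and both of nucleotide excision repair. UVSSA, which acts with ERCC6 at stalled RNA polymerase, was at 103, 111 and 106 CPM in HFD and 86.6, 86.2 and 75.8 CPM in RD (log2 change 0.36 ± 0.08, edgeR adjusted p = 0.019). The groups did not overlap. Leaving out HFD replicate 2 or 3 ended the call (0.090 and 0.078). CETN2, the centrin that binds the lesion sensor XPC, had a log2 change of 0.34 ± 0.09 (0.041) and lost its call whichever library was left out (up to 0.17). The lists of checkpoint and double-strand break genes (33 tested) and base excision (18) held 0 called genes by edgeR or limma-voom. So did those of mismatch and direct reversal (5) and of damage tolerance and crosslink repair (16). In these lists 2, 4, 1 and 4 genes were at an unadjusted p under 0.05, against 26.5% of all tested genes. DESeq2 called 1 gene of these lists, in the damage tolerance list. The medians of the 5 lists lay between -0.07 and 0.19.

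Of 24 tested target genes of p53, the transcription factor activated by DNA damage, 1 was called, against 10.5% of all tested genes. By edgeR 8 of the 24 were at an unadjusted p under 0.05, against 26.5% of all tested genes. These were CCNG1 and AEN, lower in HFD, and BTG2, DDB2, PERP, GADD45A, RRM2B and PLK3, higher in HFD. CCNG1, the cyclin G gene, fell to 95.6 ± 1.5 CPM in HFD glands, against 126 ± 4.25 CPM in RD glands (log2 change -0.39 ± 0.06, edgeR adjusted p = 0.0064), and was called with any library left out. CDKN1A, the cell cycle inhibitor p21, was at 13.9, 11.8 and 12.4 CPM in HFD and 8.32, 10.4 and 14.3 CPM in RD with overlap (0.21 ± 0.19). The list had a median of 0.04, with 14 genes above 0 and 10 below. Scaling by library size alone called 5 of the 24, and DESeq2 called 2.

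Genes of dividing cells gave 0 calls, among 31 of DNA replication and 18 of mitosis, with 2 and 2 at an unadjusted p under 0.05 and 0 called by DESeq2 or limma-voom. The summed level of the mitosis list was 42.65 to 51.1 CPM in HFD libraries and 43.5 to 45.9 CPM in RD libraries, and that of the replication list 326 to 337 CPM in HFD and 337 to 339 CPM in RD. MKI67, the proliferation marker, was at 5.69, 4.68 and 6.35 CPM in HFD and 4.89, 6.25 and 5.03 CPM in RD, so the groups overlapped. Its log2 change was 0.05 ± 0.20, with an unadjusted interval of -0.40 to 0.50.

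Markers of several cell types differed between the diets, and their part in the repair gene results was not tested. The 2 somatotroph genes summed to 36710 to 39710 CPM in HFD and 59100 to 71830 CPM in RD. Nearly all of this was GH1, which was called lower. GHRHR was at 165 ± 32.9 CPM in HFD and 209 ± 48.4 CPM in RD. Its groups overlapped and it was not called (log2 change -0.34 ± 0.17, edgeR adjusted p = 0.24). PRL, the lactotroph gene, was called lower at 9521 to 12131 CPM in HFD and 13647 to 15142 CPM in RD. The 4 gonadotroph genes, 3 called lower and 1 higher, summed to 1023 to 1107 CPM in HFD and 1345 to 1512 CPM in RD. The 2 thyrotroph genes, both called higher, summed to 296.8 to 310 CPM in HFD and 105 to 174 CPM in RD, and none of these 4 sums overlapped between the diets. Of the 4 oligodendrocyte genes 3 were tested and 2 called higher, MAG among them. The 4 genes summed to 70.2 to 182 CPM in HFD and 59.35 to 71.4 CPM in RD. MOG had 0 counts in 2 RD libraries, and the highest sum was that of HFD replicate 3. RAD18 was at 46.3 CPM in that library and at 40.6 and 42.5 CPM in the other HFD libraries. The 7 endothelial, 7 myeloid and 6 posterior lobe genes held 0 called genes by edgeR, DESeq2 or limma-voom (1, 0 and 0 at an unadjusted p under 0.05). Among all tested genes edgeR called 10.5%, and 26.5% were at an unadjusted p under 0.05. The posterior lobe genes varied widely within each diet, summing to 94.5 to 206.5 CPM in HFD and 164.9 to 272.5 CPM in RD. Of their 6 unadjusted 95% intervals, 0 lay within a 1.5-fold change. Of 4 corticotroph and melanotroph, 6 folliculostellate and stem, 7 mural and 3 tested lymphoid genes, edgeR called 1, 2, 1 and 1.

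**Figure D4:**
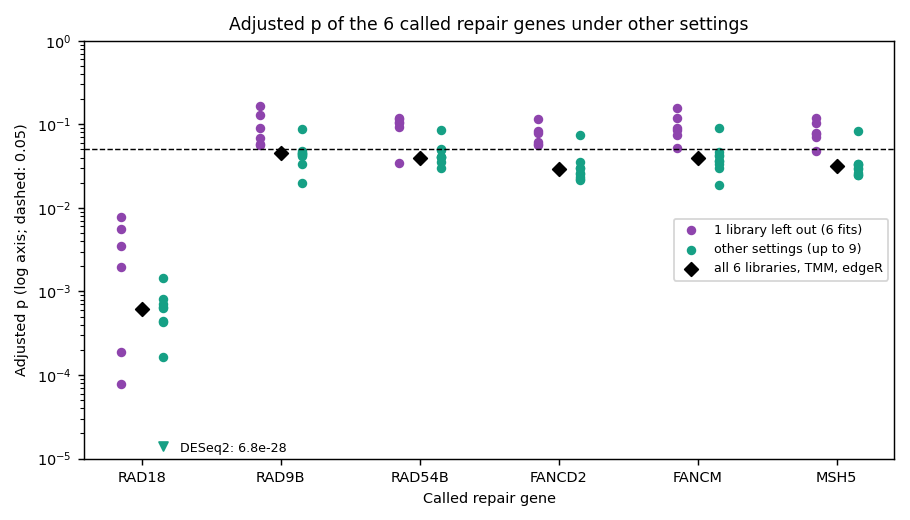
Adjusted p (y axis, log scale, dashed line at 0.05) of the 6 called repair genes with all libraries by edgeR with TMM (diamond), with 1 library left out (purple, 6 fits) and under up to 9 other settings (green). RAD18 stays under 0.05 throughout, its DESeq2 value of 6.8e-28 being drawn at the lower edge, while the 5 genes that rose lie near the line, between 0.0187 and 0.165.

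The 5 rises rested on all libraries together. FANCD2, FANCM and RAD9B lost their calls whichever library was left out (edgeR adjusted p from 0.052 to 0.17). MSH5 kept its call when RD replicate 1 was dropped (0.047) and RAD54B when RD replicate 3 was dropped (0.035), and with any other library dropped their adjusted p reached 0.12. RAD54B did not pass the strict filter and narrowly missed the threshold by DESeq2 (0.0501). Their log2 changes stayed above 0 in these fits, between 0.84 and 1.02 for FANCD2, 0.26 and 0.32 for FANCM, 0.37 and 0.58 for RAD9B, 0.75 and 0.88 for MSH5 and 1.10 and 1.51 for RAD54B. Over all genes the share called in these fits ranged from 3.08% without HFD replicate 3 to 10.9% without RD replicate 1.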

How the data were processed

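Read counts per gene were taken from the table deposited by the authors, with 1 column for each of the 6 libraries and no normalization. The genome build was mm10 per the submitters' processing notes, and polyadenylated RNA was selected per the labels' protocols. Which aligner, counter and annotation were used was not given in the sources used here. Among counts of 1 to 10, 64.0% to 67.0% were even, so both mates of a pair may have been counted, and no counting intervals are given.

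Differences were tested on the counts in R 4.3.3 with edgeR 4.0.16 (quasi-likelihood test, TMM, minimum count 10, minimum total 15, intercept and diet, two-sided, Benjamini-Hochberg adjustment over all tested genes). Each SE was obtained as the absolute log2 change over the root of its F statistic. DESeq2 1.42.0, limma-voom (limma 3.58.1), other scalings, filters, thresholds, halved counts, a replicate block and each library left out were alternatives. No libraries of a group were identical. Positions and exon lengths are from GENCODE M21 (GRCm38), matched for 69 of 70 genes, and promoters from RefSeq (GRCm38.p6).

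The genes and lists were chosen with earlier results of these data known. Genes named with values are the called ones, the 3 with the smallest p and the 3 highest per kilobase in each route, and up to 4 called genes of each other list. Others named, such as FANCI, CHEK1, OGG1, MSH4, LIG1, RAD18's partners and neighbours, CDKN1A and MKI67, were chosen after their values were seen. Some genes that this rule names are not reported here by name.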

Additional observations from a re-analysis of the deposited data

How the results depend on the processing

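The fall of RAD18 kept its direction and its call under all alternatives run. In all, 6 repair genes were called by edgeR (5 higher, 1 lower). With 1 library left out the number was 1 to 4, of which 0 to 1 higher and 1 to 3 lower; all genes called numbered 431 to 1523, other repair genes 0 to 2, p53 targets 1 to 3 and replication and mitosis genes 0 to 1. At a threshold of 0.01, 1 repair gene (0 higher), 0 other repair genes and 412 genes in all were called, and at 0.10 these were 10 repair genes (3 lower), 7 other repair genes, 6 p53 targets, 1 replication or mitosis gene and 2343 genes in all. The strict filter, DESeq2 and halved counts each called 2 repair genes lower. DESeq2 and no filter called 2 p53 targets, and library size alone called 5, with 4 other repair genes. Same-numbered HFD and RD libraries deviated with correlations of -0.15, 0.026 and -0.11, against -0.037 to 0.157 for different numbers. These values thus show no pairing by replicate number. With 3 libraries in a group, each centred on its group mean, they cannot exclude one either. With the replicate block 808 genes, 1 repair gene (RAD18, 0 higher), 1 other repair gene and 2 p53 targets were called. All 5 rises lost their calls with this block (edgeR adjusted p from 0.075 for FANCD2 to 0.091 for FANCM). No called gene changed sign in any setting, and 11 uncalled named genes crossed 0 in 22 instances. Alternatives to the number of genes without overlap between the groups were not run. Among repair genes under 10 CPM, 3 of 20 intervals lay within a 1.5-fold change, and the parts of counting error and of variation among libraries in this were not tested. The causes of these shifts were not tested.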
